A study of Mus musculus with 20 samples.

Results

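Undifferentiated ATDC5 cells that lack functional Kmt2d were compared with Kmt2d+/+ ATDC5 cells, using RNA sequencing of clonal lines. The 5 libraries were those harvested at day 0, before any differentiation medium, out of 10 libraries in the series. They comprised 2 Kmt2d-/- clones, in which both alleles lack the part of the gene encoding the catalytic SET domain, and 3 Kmt2d+/+ clones. ATDC5 is a mouse line, derived from a teratocarcinoma, that can be turned into cartilage-like cells by insulin, and all 5 lines were kept in the same serum-containing growth medium. In the labels the Kmt2d-/- clones 1 and 2 are called 10-7 and 96-9, and the Kmt2d+/+ clones 1, 2 and 3 are called 10-5, 10-7 and 10-8. The name 10-7 thus occurs in both genotypes, and the relation of those lines is not given in the sources used here. Each library was run on 2 flow cells and the runs were summed, so the clone is the replicate. Each clone is a single clonal line, and its own history is shared by every cell in its library.

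KMT2D is a histone methyltransferase that places methyl groups on lysine 4 of histone H3, mainly at enhancers, and works in a complex with the demethylase KDM6A and the shared subunits ASH2L, RBBP5, WDR5 and DPY30. Heterozygous loss of the gene causes Kabuki syndrome, in which growth of the skeleton is restricted. In cartilage, the transcription factor SOX9 drives the genes for type II collagen and aggrecan, and SHOX2 acts in early limb cartilage before chondrocytes mature. In ATDC5 cells these genes are normally low until insulin is added. The comparison asks which genes already differ between the genotypes in that starting state.

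Summed libraries held 35792773 to 47938043 counts. A level of 3 counts, used here as the detection floor, corresponded to 0.0622 to 0.0845 CPM, which is a gene's count relative to its library's total, scaled by edgeR's trimmed mean of M values. Mitochondrial genes took 2.37% to 2.78% of the counts. The 10 most abundant genes took 12.8% and 8.26% in Kmt2d-/- clones 1 and 2, against 6.74% to 7.65% in the Kmt2d+/+ clones. Clones of 1 genotype were far from alike. Among 12052 genes with enough counts to compare, 372 were at least 4-fold apart between the 2 Kmt2d-/- clones, and 115, 309 and 426 between pairs of Kmt2d+/+ clones. Between genotypes the number ran from 444 to 713. Kmt2d+/+ clone 2 stood apart from the other Kmt2d+/+ clones. On the first principal component, which held 51.7% of the variance, Kmt2d-/- clones 1 and 2 scored -61.74 and -50.9, and Kmt2d+/+ clones 1, 2 and 3 scored 59.17, 6.1 and 47.37. The pair with the smallest difference across genotypes was Kmt2d-/- clone 1 and Kmt2d+/+ clone 2, the lines that share the name 10-7.

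**Figure D1:**
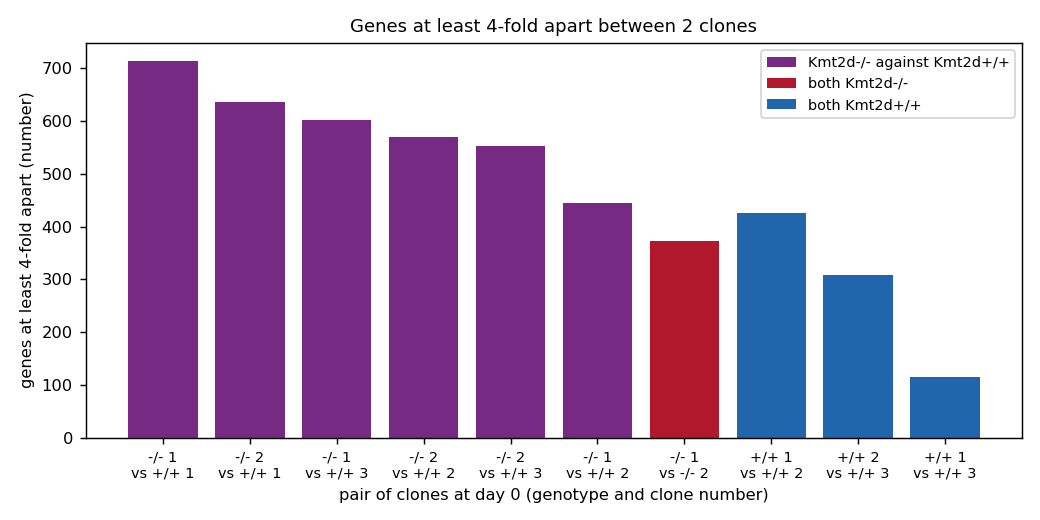
Bars give the number of genes, out of 12052 compared, with levels at least 4-fold apart between 2 clones at day 0. The 6 pairs across genotypes (444 to 713 genes) lie above the Kmt2d-/- pair (372) and all 3 Kmt2d+/+ pairs (115 to 426).

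The targeted gene itself was read at a like level in all clones. Kmt2d (ENSMUSG00000048154, chromosome 15, 98831669 to 98871204, GRCm38) had 198.4 and 143.7 CPM in the Kmt2d-/- clones, against 207.4, 181.0 and 191.4 CPM in the Kmt2d+/+ clones. The log2 fold change was -0.18 ± 0.20 (SE), with adjusted p = 0.677 in edgeR's quasi-likelihood test, and without Kmt2d-/- clone 2 it turned to 0.04. Because the deletion covers only the SET domain, a count over the whole gene does not check it. Of 19 listed genes of the H3K4 methyltransferase complexes, 18 were tested and 0 passed in either direction. Their median log2 fold change was -0.10, beside -0.004 over all genes tested. Kmt2c, the closest relative of Kmt2d, had 130.9 and 141.3 CPM in the Kmt2d-/- clones, against 110.3, 118.8 and 98.9 CPM in the Kmt2d+/+ clones (adjusted p = 0.375). Kdm6a had 43.6 and 43.3 CPM in the Kmt2d-/- clones, against 43.6, 37.7 and 36.6 CPM in the Kmt2d+/+ clones.

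At a Benjamini-Hochberg adjusted p under 0.05, 9 of 14216 genes differed between the genotypes (0.0633%). Of these 4 rose in the Kmt2d-/- clones, namely Syk, Gfra4, Zfyve26 and Traf4. The 5 that fell were Ndn, Cox7b2, Pla2g5, Akr1c13 and Zfp980, and each was below 1 CPM in both Kmt2d-/- clones. Under an adjusted p of 0.10 there were 110 genes, 44 higher and 66 lower. An unadjusted p under 0.05 was reached by 2645 genes, and for 5385 (37.9%) the clones of the genotypes did not overlap. The call depended on single clones. It came to 1 gene without Kmt2d+/+ clone 1, 0 without Kmt2d+/+ clone 3, and 19 without Kmt2d+/+ clone 2. Leaving out a Kmt2d-/- clone leaves 1 library in that group, so no count is given for it. All 9 genes kept their direction with any clone left out. Because their clones did not overlap between the genotypes, that was fixed in advance and is no further support. DESeq2, on the same libraries, called 1477 genes.

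**Figure D2:**
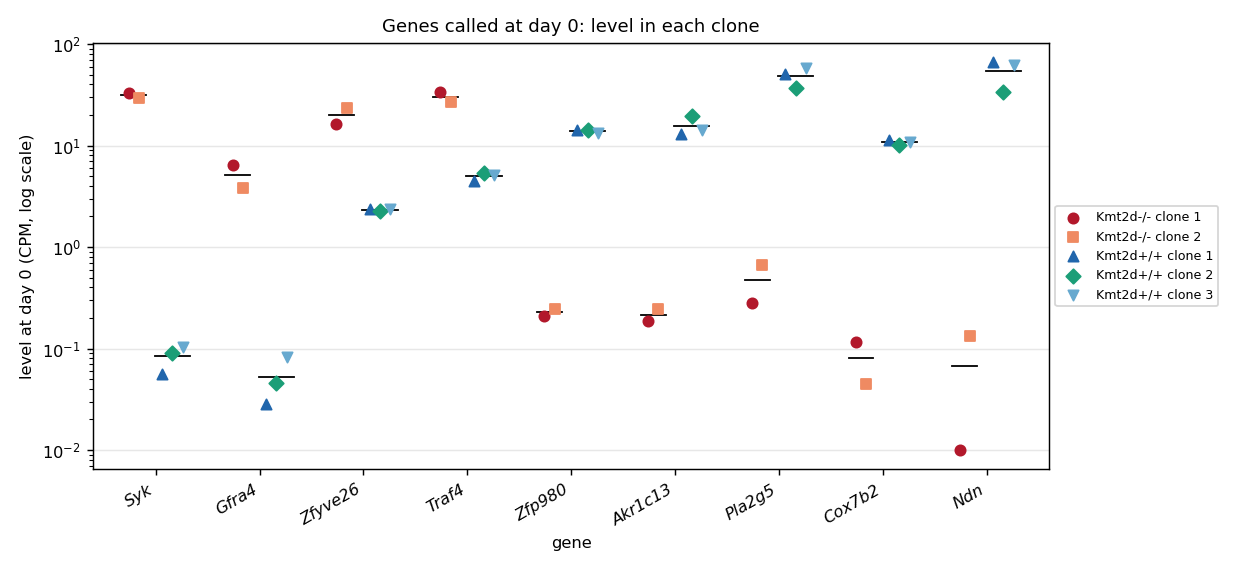
Points give the level of each gene called at day 0 in each clone, in CPM on a log scale, with the Kmt2d-/- clones left of the Kmt2d+/+ clones and the mean of each genotype as a line. A level of 0 (Ndn in Kmt2d-/- clone 1) is drawn at 0.01 CPM. In all 9 genes the clones of the genotypes are separate, and Syk and Ndn show the widest gaps.

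Syk encodes a cytoplasmic tyrosine kinase best known downstream of immune receptors. It had 32.96 and 29.23 CPM in the Kmt2d-/- clones, against 0.0564, 0.0907 and 0.104 CPM in the Kmt2d+/+ clones. Both Kmt2d-/- clones were high and the Kmt2d+/+ clones lay around the floor, with 11 counts in all. The log2 fold change was 8.46 ± 0.34 (SE, edgeR's quasi-likelihood test, adjusted p = 0.0029), the smallest p of the comparison. Syk lies on chromosome 13 at 52583173 to 52648792, on the plus strand.

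Gfra4, a co-receptor for the GDNF-family ligand persephin, showed the same pattern at a lower level. It had 6.401 and 3.851 CPM in the Kmt2d-/- clones, against 0.0282, 0.0453 and 0.0829 CPM in the Kmt2d+/+ clones (log2 fold change 6.50 ± 0.59, edgeR adjusted p = 0.0444). Zfyve26, which encodes spastizin, a lysosome and autophagy protein, had 16.4 and 23.5 CPM in the Kmt2d-/- clones, against 2.40, 2.24 and 2.34 CPM in the Kmt2d+/+ clones. Its log2 fold change was 3.10 ± 0.28 with an edgeR adjusted p of 0.0444. Zfyve26 lies in a stretch of chromosome 12 that was raised in both Kmt2d-/- clones, and with the regional level taken out, as described further on, the log2 fold change was 2.39 and no longer passed (adjusted p = 0.067). Traf4, a signalling adaptor that binds TNF-family and TGF-beta receptors, had 33.3 and 26.7 CPM in the Kmt2d-/- clones, against 4.48, 5.35 and 5.14 CPM in the Kmt2d+/+ clones (2.59 ± 0.23, edgeR adjusted p = 0.0444). Zfyve26 and Traf4 were thus expressed in every clone and differed in degree, while Syk and Gfra4 were near the floor in all Kmt2d+/+ clones.

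Ndn (necdin) is a paternally expressed imprinted gene whose product restrains cell growth and is studied in neurons and fat precursors. It had 0 and 0.134 CPM in the Kmt2d-/- clones, against 66.4, 33.7 and 62.2 CPM in the Kmt2d+/+ clones. That was 6 counts over both Kmt2d-/- clones and 6842 over the Kmt2d+/+ clones (log2 fold change -9.57 ± 0.87, edgeR adjusted p = 0.0444). Without Kmt2d-/- clone 2, the only one with a count, the fitted value was -14.17, which depends on the prior count and is no bound. Cox7b2, which encodes a variant of cytochrome c oxidase subunit 7B typical of testis, had 0.117 and 0.0445 CPM in the Kmt2d-/- clones, against 11.4, 10.1 and 10.7 CPM in the Kmt2d+/+ clones (-7.02 ± 0.53, adjusted p = 0.0264, and -7.81 without Kmt2d-/- clone 1). The Kmt2d+/+ clones agreed closely, and the Kmt2d-/- clones held 7 counts together.

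Pla2g5 encodes a secreted phospholipase A2. It had 0.280 and 0.668 CPM in the Kmt2d-/- clones, against 50.8, 36.5 and 58.6 CPM in the Kmt2d+/+ clones (log2 fold change -6.67 ± 0.50, edgeR adjusted p = 0.0264, and -7.42 without Kmt2d-/- clone 2). Akr1c13, an aldo-keto reductase, had 0.187 and 0.245 CPM in the Kmt2d-/- clones, against 12.9, 19.7 and 14.3 CPM in the Kmt2d+/+ clones (-6.16 ± 0.42, edgeR adjusted p = 0.0242). It belongs to a cluster of similar genes, and reads may be split between them. Zfp980, a zinc finger gene of a cluster on chromosome 4, had 0.210 and 0.245 CPM in the Kmt2d-/- clones, against 14.3, 14.2 and 13.4 CPM in the Kmt2d+/+ clones (-5.92 ± 0.35, edgeR adjusted p = 0.0143). Because its copies are near identical, the level of Zfp980 as a single gene is uncertain.

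The start regions of Syk and of the 3 genes that fell most are shown, because these 4 genes had the largest fold changes of the 9. Each stretch runs from 250 bases before to 50 bases after a RefSeq transcript start (GRCm38.p6) and is written 5′ to 3′ on the strand of the gene, with every CpG dinucleotide in capitals. CpG is the site of DNA methylation in mammals, which was not measured here.
Syk (chr13:52583187-52583486, plus strand): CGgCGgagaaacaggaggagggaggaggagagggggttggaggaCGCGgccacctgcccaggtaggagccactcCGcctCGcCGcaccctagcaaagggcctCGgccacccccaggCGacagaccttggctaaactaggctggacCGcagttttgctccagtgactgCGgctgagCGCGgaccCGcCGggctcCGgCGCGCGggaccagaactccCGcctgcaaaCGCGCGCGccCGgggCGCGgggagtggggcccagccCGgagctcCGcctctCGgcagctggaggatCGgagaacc
Ndn (chr7:62348027-62348326, plus strand): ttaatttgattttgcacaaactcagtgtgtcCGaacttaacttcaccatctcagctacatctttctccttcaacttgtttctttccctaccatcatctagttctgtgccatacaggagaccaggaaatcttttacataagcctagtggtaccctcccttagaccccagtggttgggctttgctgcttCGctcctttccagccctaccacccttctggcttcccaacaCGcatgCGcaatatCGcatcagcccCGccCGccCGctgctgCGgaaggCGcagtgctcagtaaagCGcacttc
Pla2g5 (chr4:138863420-138863719, minus strand): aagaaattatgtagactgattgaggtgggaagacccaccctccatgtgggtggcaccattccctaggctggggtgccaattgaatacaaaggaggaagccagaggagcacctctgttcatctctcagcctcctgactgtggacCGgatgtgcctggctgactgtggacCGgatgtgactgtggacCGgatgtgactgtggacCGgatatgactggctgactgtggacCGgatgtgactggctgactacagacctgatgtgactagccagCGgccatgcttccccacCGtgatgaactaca
Cox7b2 (chr5:71548156-71548455, minus strand): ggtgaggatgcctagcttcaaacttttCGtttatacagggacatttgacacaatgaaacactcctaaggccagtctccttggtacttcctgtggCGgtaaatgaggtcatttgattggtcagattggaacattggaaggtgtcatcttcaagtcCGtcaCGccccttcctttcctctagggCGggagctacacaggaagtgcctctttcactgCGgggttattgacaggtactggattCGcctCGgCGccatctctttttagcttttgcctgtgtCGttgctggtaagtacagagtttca
The Syk stretch holds 31 CpGs and is 72.0% G or C. Ndn holds 11, Pla2g5 7 and Cox7b2 10, with 51.0%, 55.3% and 48.7% G or C. The RefSeq start of Ndn lies 1708 bases from the start of the gene in the GENCODE annotation, and that of Syk 264 bases.

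Among the others, the Traf4 stretch held 33 CpGs, Zfyve26 15, Zfp980 3, Akr1c13 2 and Gfra4 2. A RefSeq start region was found for 10471 of the genes tested, with a median of 21 CpGs, and 81.1% held at least 10. The share was 3 of 4 among the genes that rose and 2 of 5 among those that fell. The letters TATAAA, searched on both strands, were found in Cox7b2 and in 7.2% of all 10471 stretches. In the wider class of genes with means at least 4-fold apart described next, at least 10 CpGs were found in 73.7% of 95 stretches of genes higher in Kmt2d-/- cells and in 36.9% of 149 stretches of genes that were lower.

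To describe more genes than the 9, 2 further readings were used. The first was a class chosen after the data were seen and carries no test. It holds genes with means at least 4-fold apart, at least 1 CPM in a genotype and no overlap between clones. By this reading 131 genes were higher in the Kmt2d-/- clones (0.921%) and 221 were lower (1.55%). Where a gene of this class was higher, Kmt2d+/+ clone 2 was the nearest Kmt2d+/+ clone in 87 of 131 genes, and where it was lower in 97 of 221. The second was a limma-voom fit over all 10 libraries, both days included, with an estimated correlation of 0.49 between the libraries of a clone. It called 99 genes higher at day 0 (0.64%) and 94 lower (0.608%) of 15467 tested, and all 9 genes above were among them. Below, p-values from it are marked as from the clone-correlation fit, and all others are from edgeR on the 5 day 0 libraries. The gene lists used below were tested in neither fit as sets.

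**Figure D3:**
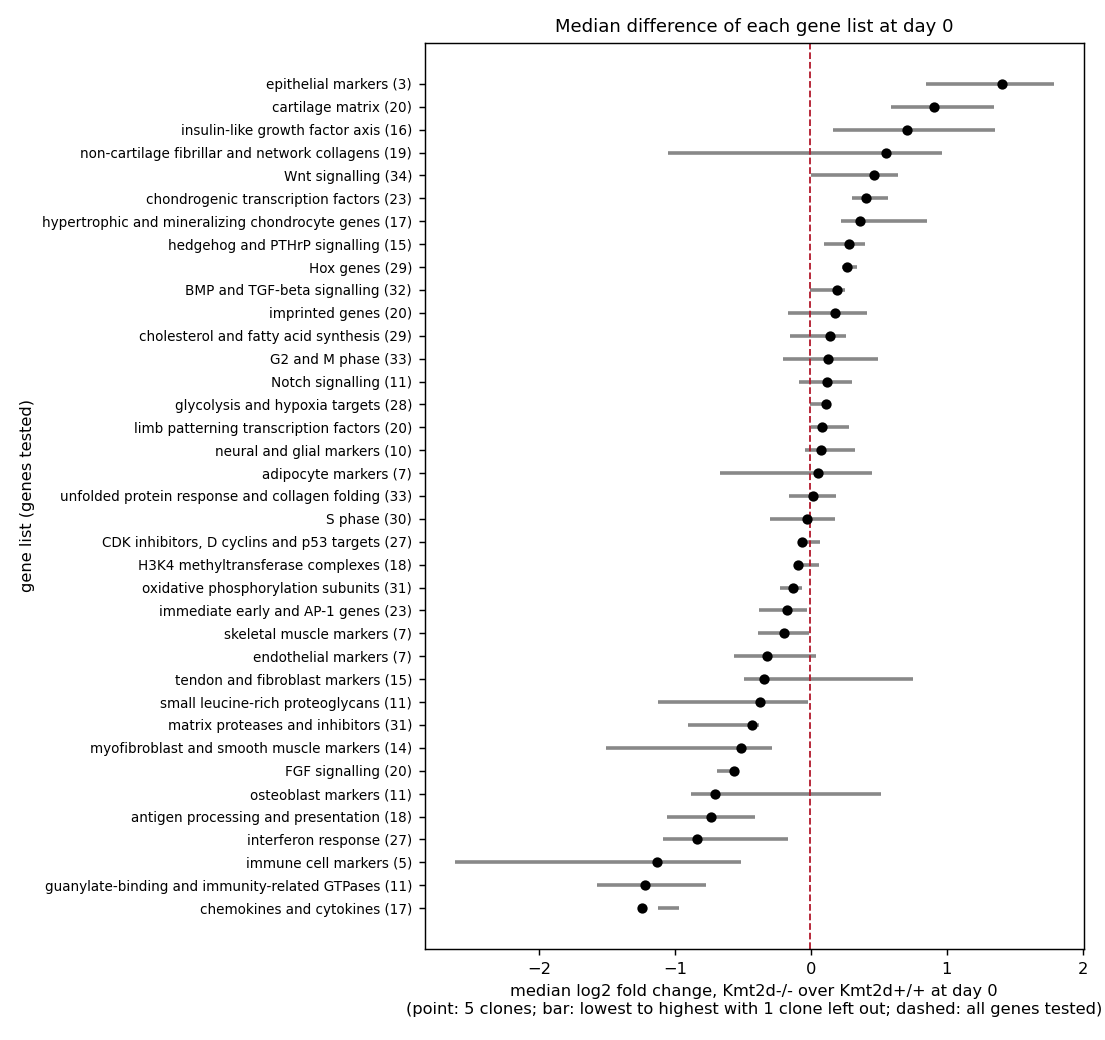
Points give the median log2 fold change (Kmt2d-/- over Kmt2d+/+, day 0) of the tested genes in each of 37 lists, and bars the lowest to highest median with 1 clone left out, over the members kept in that fit. Cartilage matrix and the insulin-like growth factor axis lie right of the dashed line for all genes, and chemokines and guanylate-binding proteins left of it. A bar need not enclose its point.

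Most tested cartilage matrix genes stood higher in the Kmt2d-/- clones before differentiation was induced, among them Col2a1 and Col11a1. None passed at adjusted p under 0.05 on the 5 libraries. Of 28 listed genes, 20 were tested, 18 had a positive and 2 a negative log2 fold change, and the median was 0.91. In the 4-fold class were 6, all higher, beside 131 higher and 221 lower of 14216 over all genes tested. The clone-correlation fit called 1 gene of the list. Without overlap between clones, 9 were higher and 1 was lower, beside 2622 higher and 2763 lower of 14216 over all genes tested. The lower one was Ccn2, the most abundant gene of the list. Levels summed over the list were 7139 and 2234 CPM in the Kmt2d-/- clones, against 2270, 3041 and 2785 CPM in the Kmt2d+/+ clones. By that sum Kmt2d-/- clone 2 lay below every Kmt2d+/+ clone, but most of the sum in the Kmt2d+/+ clones was Ccn2. Ccn2 had 974.0 and 254.3 CPM in the Kmt2d-/- clones, against 2158, 2526 and 2584 CPM in the Kmt2d+/+ clones. The sum therefore does not show the level of the other genes of the list. Col2a1, the chain of type II collagen, had 2449 and 782.9 CPM in the Kmt2d-/- clones, against 2.68, 33.6 and 8.52 CPM in the Kmt2d+/+ clones. The Kmt2d-/- clones differed from each other, and both lay far above the highest Kmt2d+/+ clone, clone 2. The log2 fold change was 6.76 ± 1.17 (edgeR adjusted p = 0.101, and 0.0379 in the clone-correlation fit), and 8.16 without Kmt2d+/+ clone 2.

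Col11a1, a minor fibrillar collagen that copolymerizes with type II collagen, had 3222 and 930.5 CPM in the Kmt2d-/- clones, against 7.69, 280.7 and 89.3 CPM in the Kmt2d+/+ clones (log2 fold change 4.04 ± 1.30, edgeR adjusted p = 0.191). Leaving out Kmt2d-/- clone 1 gave a log2 fold change of 2.90 for Col11a1, and leaving out Kmt2d+/+ clone 2 gave 5.42. Hapln1, the link protein that ties aggrecan to hyaluronan, had 36.2 and 10.7 CPM in the Kmt2d-/- clones, against 0.169, 2.81 and 0.435 CPM in the Kmt2d+/+ clones (edgeR adjusted p = 0.155). Papss2, an enzyme that supplies activated sulfate for proteoglycans, had 15.9 and 2.56 CPM in the Kmt2d-/- clones, against 0.169, 0.363 and 0.228 CPM in the Kmt2d+/+ clones (edgeR adjusted p = 0.101). Col11a1, Hapln1 and Papss2 did not pass in the clone-correlation fit either (adjusted p = 0.0881, 0.348 and 0.104). Without Kmt2d-/- clone 1 the log2 fold change was 3.23 for Hapln1 and 3.33 for Papss2, against 4.35 and 5.16 with all clones. In all of these Kmt2d-/- clone 1 was the highest library and Kmt2d+/+ clone 2 the highest of its genotype. Acan, the aggrecan core protein, overlapped between genotypes, with 90.3 and 4.96 CPM in the Kmt2d-/- clones, against 0.113, 8.29 and 0.705 CPM in the Kmt2d+/+ clones. Over the 20 tested cartilage genes Kmt2d+/+ clone 2 was the highest Kmt2d+/+ clone in 17.

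Of 17 tested genes of enlarged and mineralizing chondrocytes, 0 passed, 13 had a positive log2 fold change, the median was 0.36, and 2 were in the 4-fold class. Over all genes tested, that class held 131 higher and 221 lower of 14216. Panx3, a channel protein of prehypertrophic chondrocytes, had 67.02 and 38.64 CPM in the Kmt2d-/- clones, against 2.96, 14.1 and 5.91 CPM in the Kmt2d+/+ clones (log2 fold change 2.79 ± 0.64, edgeR adjusted p = 0.129). Mgp, an inhibitor of mineralization, had 20.9 and 17.0 CPM in the Kmt2d-/- clones, against 0.648, 4.44 and 1.55 CPM in the Kmt2d+/+ clones (3.09 ± 0.74, adjusted p = 0.138). Col10a1, the collagen of hypertrophic cartilage, had 28.9 and 26.6 CPM in the Kmt2d-/- clones, against 3.69, 21.1 and 3.75 CPM in the Kmt2d+/+ clones. The alkaline phosphatase gene Alpl overlapped, with 248.0 and 111.8 CPM in the Kmt2d-/- clones, against 115.9, 313.6 and 479.9 CPM in the Kmt2d+/+ clones.

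The 2 transcription factors named with Kmt2d in the naming rule lay on opposite sides, and neither passed. Shox2 (chromosome 3, 66971727 to 66981771) had 4.70 and 6.88 CPM in the Kmt2d-/- clones, against 28.6, 25.3 and 27.5 CPM in the Kmt2d+/+ clones. All Kmt2d+/+ clones were within a narrow range and both Kmt2d-/- clones were well below it (log2 fold change -2.23 ± 0.27, edgeR adjusted p = 0.061, and 0.101 in the clone-correlation fit). Sox9 (chromosome 11, 112782224 to 112787760) had 150.2 and 169.7 CPM in the Kmt2d-/- clones, against 33.2, 67.7 and 20.9 CPM in the Kmt2d+/+ clones (1.98 ± 0.47, edgeR adjusted p = 0.135). Its partners Sox5 and Sox6 overlapped between the genotypes. Of 23 tested chondrogenic transcription factors, 15 had a positive log2 fold change, with a median of 0.41. Runx1, with 148.9 and 91.8 CPM in the Kmt2d-/- clones against 65.6, 48.3 and 45.5 CPM in the Kmt2d+/+ clones, did not overlap (edgeR adjusted p = 0.131). Creb5, a factor of articular cartilage, was called lower in the clone-correlation fit (adjusted p = 0.0489), with 1.17 and 1.07 CPM in the Kmt2d-/- clones, against 4.39, 4.76 and 5.45 CPM in the Kmt2d+/+ clones. Foxa2, which acts in hypertrophic chondrocytes, had 1.07 and 0.223 CPM in the Kmt2d-/- clones and 0 counts in the Kmt2d+/+ clones, which makes it at least 9.07-fold higher against a floor of 3 counts per library.

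**Figure D4:**
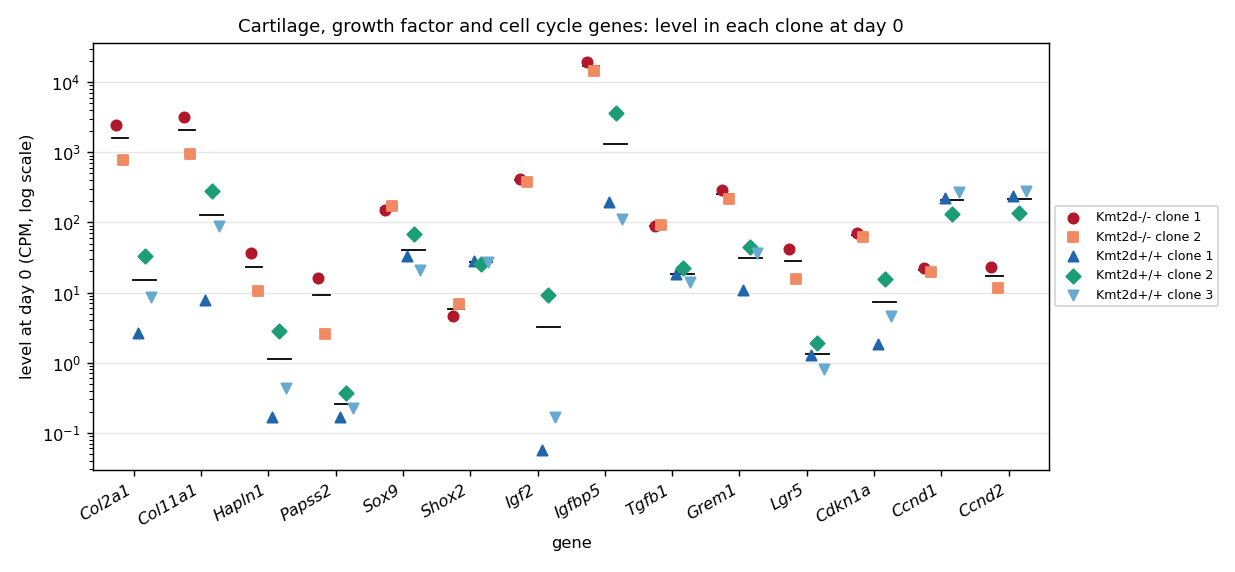
Points give the day 0 level of 14 cartilage, growth factor and cell cycle genes in each clone, in CPM on a log scale, with the Kmt2d-/- clones left of the Kmt2d+/+ clones and means as lines. All but Sox9 are in the 4-fold class, which requires no overlap between clones, so the separation drawn is part of the choice. Acan, Ccnd3 and Igf1r, which overlapped, are not drawn. Kmt2d+/+ clone 2 is often the nearest to the Kmt2d-/- clones, as for Igf2 at 9.31 CPM and Igfbp5 at 3580 CPM.

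The insulin-like growth factor axis had the next highest median of the larger lists, 0.71 over 16 tested genes, and 4 of them were in the 4-fold class, all higher. The class, chosen after the data were seen, held 131 higher and 221 lower of 14216 over all genes tested. Igf2, an imprinted fetal growth factor, had 418.8 and 377.6 CPM in the Kmt2d-/- clones, against 0.0564, 9.31 and 0.166 CPM in the Kmt2d+/+ clones. Both Kmt2d-/- clones were high, Kmt2d+/+ clones 1 and 3 were near the floor, and clone 2 lay in between (log2 fold change 6.96 ± 1.79, edgeR adjusted p = 0.15, and 0.0484 in the clone-correlation fit). Without Kmt2d+/+ clone 2 the log2 fold change was 11.69. Igfbp5, a binding protein for these factors, was among the most abundant transcripts, with 19360 and 14300 CPM in the Kmt2d-/- clones, against 194.5, 3580 and 111.9 CPM in the Kmt2d+/+ clones (3.70 ± 1.44, edgeR adjusted p = 0.251, and a log2 fold change of 6.78 without Kmt2d+/+ clone 2).

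Igfbp2 and Igfbp3, further binding proteins, were also higher in both Kmt2d-/- clones without overlap, but here Kmt2d-/- clone 2 lay above clone 1 and Kmt2d+/+ clone 3 was the highest of its genotype. Igfbp2 had 24.0 and 39.7 CPM in the Kmt2d-/- clones, against 0.113, 1.61 and 2.20 CPM in the Kmt2d+/+ clones (edgeR adjusted p = 0.119). Igfbp3 had 11.9 and 27.5 CPM in the Kmt2d-/- clones, against 0.986, 3.72 and 3.83 CPM in the Kmt2d+/+ clones (edgeR adjusted p = 0.131). The receptor Igf1r did not share the pattern, with 275.8 and 196.1 CPM in the Kmt2d-/- clones, against 268.7, 205.2 and 239.3 CPM in the Kmt2d+/+ clones. Igf2bp1, an RNA-binding protein of fetal growth, was called lower in the clone-correlation fit (adjusted p = 0.0471), with 15.9 and 21.2 CPM in the Kmt2d-/- clones, against 64.6, 40 and 58.3 CPM in the Kmt2d+/+ clones.

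Imprinted genes held both Ndn and Igf2 and showed no common direction. Of 29 listed, 20 were tested, 13 with a positive and 7 with a negative log2 fold change, and 1 (Ndn) passed. Next to Ndn on chromosome 7, Magel2 was at or below 0.0453 CPM in every clone, and Mkrn3 had 1.26 and 1.76 CPM in the Kmt2d-/- clones, against 2.68, 1.47 and 3.96 CPM in the Kmt2d+/+ clones. Dio3, which inactivates thyroid hormone, was read in only 1 clone, with 2.90 CPM in Kmt2d-/- clone 1 and 0 in the other 4. Peg3 had 70.1 and 2.52 CPM in the Kmt2d-/- clones, against 16.3, 2.08 and 7.30 CPM in the Kmt2d+/+ clones, so that the clones of each genotype differed more than the genotypes did.

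Of the 3 D-type cyclins, which drive entry into the cell cycle, Ccnd1 was 9.94-fold and Ccnd2 12.5-fold lower in the Kmt2d-/- clones, although neither passed on the 5 libraries. Ccnd3 overlapped, with 118.1 and 69.16 CPM in the Kmt2d-/- clones, against 112.5, 132.3 and 135.7 CPM in the Kmt2d+/+ clones (edgeR adjusted p = 0.43). Ccnd1 had 22.5 and 19.6 CPM in the Kmt2d-/- clones, against 221.9, 133.6 and 273.6 CPM in the Kmt2d+/+ clones (log2 fold change -3.31 ± 0.36, edgeR adjusted p = 0.0566, and 0.0191 in the clone-correlation fit). Ccnd2 had 22.9 and 11.8 CPM in the Kmt2d-/- clones, against 237.0, 134.1 and 278.7 CPM in the Kmt2d+/+ clones (-3.65 ± 0.47, edgeR adjusted p = 0.0699, and 0.0212 in the clone-correlation fit). Both genes were lowest of the Kmt2d+/+ clones in clone 2, and neither came close to overlapping. Cdkn1a, the cyclin-dependent kinase inhibitor p21, stood the other way, with 70.8 and 62.7 CPM in the Kmt2d-/- clones, against 1.83, 15.8 and 4.60 CPM in the Kmt2d+/+ clones (3.17 ± 0.81, edgeR adjusted p = 0.15, and a log2 fold change of 4.36 without Kmt2d+/+ clone 2). Plk2, a p53-responsive kinase, was called lower in the clone-correlation fit (adjusted p = 0.0419), with 127.3 and 79.6 CPM in the Kmt2d-/- clones, against 1047, 407.7 and 571.2 CPM in the Kmt2d+/+ clones.

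The list of these regulators, 27 tested, had a median of -0.07, and 13 of them had a positive and 14 a negative log2 fold change. Genes of S phase and of G2 and M phase sat near the median of all genes. Of 30 S phase genes 0 passed, with a median of -0.03, and of 33 G2 and M genes 0 passed, with a median of 0.13. Summed G2 and M levels were 2598 and 4343 CPM in the Kmt2d-/- clones, against 3768, 2892 and 2758 CPM in the Kmt2d+/+ clones, so that the genotypes overlapped.

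Of the BMP and TGF-beta list, 3 genes were in the 4-fold class, all higher, beside 131 higher and 221 lower of 14216 over all genes tested. Tgfb1, the ligand TGF-beta 1, had 87.9 and 92.4 CPM in the Kmt2d-/- clones, against 18.5, 22.5 and 14.1 CPM in the Kmt2d+/+ clones (log2 fold change 2.30 ± 0.23, edgeR adjusted p = 0.0566). Its clones were tight within both genotypes at day 0. At day 7 Tgfb1 overlapped, with 95.1 and 85.4 CPM in the Kmt2d-/- clones, against 86.8, 22.6 and 39.5 CPM in the Kmt2d+/+ clones. Grem1, a secreted BMP antagonist, had 290.1 and 215.8 CPM in the Kmt2d-/- clones, against 10.96, 45.2 and 36.4 CPM in the Kmt2d+/+ clones (3.03 ± 0.56, edgeR adjusted p = 0.107). Nog, another BMP antagonist, had 101.8 and 24.5 CPM in the Kmt2d-/- clones, against 1.80, 18.8 and 6.22 CPM in the Kmt2d+/+ clones, and its lowest Kmt2d-/- clone was close to Kmt2d+/+ clone 2. Of 32 tested genes of the BMP and TGF-beta list, 0 passed, 19 had a positive and 13 a negative log2 fold change, and the median was 0.19. The clone-correlation fit called 0 of them, with an adjusted p of 0.0806 for Tgfb1 and 0.0834 for Grem1.

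Of 34 tested Wnt genes, 0 passed, 5 were in the 4-fold class as higher and 2 as lower. That class held 131 higher and 221 lower of 14216 over all genes tested. Lgr5, a receptor for R-spondins that marks stem cells in several tissues, had 41.2 and 15.5 CPM in the Kmt2d-/- clones, against 1.30, 1.90 and 0.808 CPM in the Kmt2d+/+ clones (log2 fold change 4.41 ± 0.56, edgeR adjusted p = 0.0669, and 0.0237 in the clone-correlation fit). The Wnt co-receptor Lrp5 had 78.4 and 100.1 CPM in the Kmt2d-/- clones, against 18.4, 16.4 and 28.7 CPM in the Kmt2d+/+ clones (2.08 ± 0.28, edgeR adjusted p = 0.0771). Lrp5 did not pass in the clone-correlation fit either (adjusted p = 0.0638). Frzb, which binds and blocks Wnt ligands outside the cell, had 6.75 and 10.4 CPM in the Kmt2d-/- clones, against 0.0282, 2.70 and 0.249 CPM in the Kmt2d+/+ clones. Dkk3, a secreted protein of the Dickkopf family, was the reverse, with 3.48 and 2.14 CPM in the Kmt2d-/- clones, against 83.2, 27.5 and 108.4 CPM in the Kmt2d+/+ clones (-4.70 ± 0.70, edgeR adjusted p = 0.0818, and 0.0471 in the clone-correlation fit). Ligand agonists were split, since Rspo3 was at 76.3 and 75.0 CPM in the Kmt2d-/- clones, against 6.68, 38.2 and 10.8 CPM in the Kmt2d+/+ clones, while Rspo2 was at 11.9 and 1.87 CPM in the Kmt2d-/- clones, against 27.1, 48.9 and 19.7 CPM in the Kmt2d+/+ clones.

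Of 20 tested FGF signalling genes, 0 passed, 14 had a negative log2 fold change, the median was -0.56, and 4 were in the 4-fold class, all lower. Over all genes tested the class held 131 higher and 221 lower of 14216. The 4 included Dusp4, Dusp6 and Etv4, which are commonly used as readouts of the ERK pathway downstream of FGF receptors. Dusp6, a phosphatase of ERK, had 4.48 and 6.30 CPM in the Kmt2d-/- clones, against 35.3, 14.0 and 17.6 CPM in the Kmt2d+/+ clones (log2 fold change -2.05 ± 0.48, edgeR adjusted p = 0.131). Etv4, an ETS transcription factor, had 0.677 and 1.07 CPM in the Kmt2d-/- clones, against 11.2, 3.56 and 19.4 CPM in the Kmt2d+/+ clones (-3.70 ± 0.81, edgeR adjusted p = 0.127). The receptors were on both sides. Fgfr2 had 418.5 and 267.1 CPM in the Kmt2d-/- clones, against 99.06, 195.3 and 121.8 CPM in the Kmt2d+/+ clones (edgeR adjusted p = 0.154). Fgfr3, which limits growth of cartilage, had 33.9 and 24.5 CPM in the Kmt2d-/- clones, against 13.78, 12.17 and 11.96 CPM in the Kmt2d+/+ clones, and was likewise higher without overlap (edgeR adjusted p = 0.109). Fgfr1 was lower without overlap, with 108.0 and 111.9 CPM in the Kmt2d-/- clones, against 165.3, 137.8 and 153.3 CPM in the Kmt2d+/+ clones (edgeR adjusted p = 0.228).

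Of 29 tested Hox genes, 0 passed, and the median log2 fold change was 0.27. Without overlap between clones, 11 of the 29 were higher in the Kmt2d-/- clones and 1 was lower, beside 2622 higher and 2763 lower of 14216 over all genes tested. Of 20 tested limb patterning factors, 6 were higher and 5 lower without overlap. The clone-correlation fit called 2, both of the Hoxd cluster and both higher. Hoxd13, which patterns the digits, had 3.04 and 10.7 CPM in the Kmt2d-/- clones, against 0, 0.0453 and 0 CPM in the Kmt2d+/+ clones (edgeR adjusted p = 0.073, and 0.0417 in the clone-correlation fit). The Kmt2d+/+ clones held 2 counts of Hoxd13, and the ratio was 444 with an exact 95% interval of 122 to 3670. For Hoxd3, with 0.818 and 3.27 CPM in the Kmt2d-/- clones and a single count in the Kmt2d+/+ clones, the ratio was 265 (47.0 to 10500). Such intervals cover counting error only. Hoxd10, Hoxd11 and Hoxd12, which lie between them, were at or below 0.401 CPM in every clone. Hoxd9 overlapped, with 10.0 and 8.44 CPM in the Kmt2d-/- clones, against 0.0564, 13.8 and 0 CPM in the Kmt2d+/+ clones. The homeobox gene Lhx2, which acts in the distal limb bud, had 33.4 and 27.7 CPM in the Kmt2d-/- clones, against 5.63, 7.14 and 7.07 CPM in the Kmt2d+/+ clones (log2 fold change 2.21 ± 0.23, edgeR adjusted p = 0.0566, and 0.0172 in the clone-correlation fit).

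Genes of innate immunity and antigen presentation were mostly lower in the Kmt2d-/- clones, and none passed. Of 27 tested interferon response genes, 24 had a negative log2 fold change and the median was -0.84, but in 21 of the 27 Kmt2d+/+ clone 2 was the highest Kmt2d+/+ clone. Without that clone the median was -0.17. Of 18 antigen processing and presentation genes 17 were negative (median -0.73), of 11 guanylate-binding and related GTPases 10 were negative (median -1.22), and of 17 chemokines and cytokines 16 were negative (median -1.24). Cd74, the invariant chain of MHC class II, had 0.0934 and 0.223 CPM in the Kmt2d-/- clones, against 3.63, 2.56 and 3.40 CPM in the Kmt2d+/+ clones (log2 fold change -4.31 ± 0.59, edgeR adjusted p = 0.0771). Tgtp2, an interferon-inducible GTPase with near-identical copies, had 0.561 and 0.646 CPM in the Kmt2d-/- clones, against 5.44, 7.16 and 9.22 CPM in the Kmt2d+/+ clones (edgeR adjusted p = 0.061, and 0.585 in the clone-correlation fit). Without overlap, 3 interferon response genes were higher and 6 lower, beside 2622 higher and 2763 lower of 14216 over all genes tested. Ifit2 was 1 of the 3, with 61.9 and 56.4 CPM in the Kmt2d-/- clones, against 31.9, 29.1 and 28.1 CPM in the Kmt2d+/+ clones.

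Ptprc, Cdh5, Epcam and Myod1, which define blood, vessel, epithelial and muscle cells, were at or below 0.136 CPM in every clone. Of 16 immune cell markers 5 were tested and 3 were at 0 in all clones, and the summed level was 4.67 and 3.85 CPM in the Kmt2d-/- clones, against 7.83, 10.9 and 9.08 CPM in the Kmt2d+/+ clones. Endothelial markers summed to 19.9 and 18.6 CPM in the Kmt2d-/- clones, against 17.3, 27.5 and 19.8 CPM in the Kmt2d+/+ clones, and Pecam1 was at 6.33 and 6.83 CPM in the Kmt2d-/- clones, against 7.97, 6.48 and 6.67 CPM in the Kmt2d+/+ clones. Epithelial markers summed to 8.11 and 2.00 CPM in the Kmt2d-/- clones, against 1.49, 1.31 and 1.74 CPM in the Kmt2d+/+ clones. Skeletal muscle markers summed to 13.7 and 15.1 CPM in the Kmt2d-/- clones, against 18.6, 15.5 and 20.6 CPM in the Kmt2d+/+ clones. Matrix genes of connective tissue were abundant in all clones, as with Col1a2 at 33230 and 17520 CPM in the Kmt2d-/- clones, against 15180, 17020 and 14380 CPM in the Kmt2d+/+ clones. In bulk RNA, fewer expressing cells and less RNA per cell cannot be told apart. For the cartilage genes above, a few differentiated cells in a culture and a low level in all cells would read alike.

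Fat and bone markers gave no common direction. Adipocyte markers had a median of 0.05 over 7 tested genes, and Adipoq was at or below 0.0445 CPM. Of 11 tested osteoblast markers 4 were positive and 7 negative. Sp7, a factor of bone-forming cells, had 193.9 and 163.6 CPM in the Kmt2d-/- clones, against 82.4, 89.6 and 118.4 CPM in the Kmt2d+/+ clones, while Phex, a peptidase of bone mineralization, had 0.724 and 1.07 CPM in the Kmt2d-/- clones, against 12.4, 4.01 and 4.97 CPM in the Kmt2d+/+ clones (edgeR adjusted p = 0.141 and 0.127). Actg2, a smooth muscle actin, had 1.68 and 0.801 CPM in the Kmt2d-/- clones, against 5.24, 10.0 and 10.9 CPM in the Kmt2d+/+ clones (edgeR adjusted p = 0.11). Ccn2, a matrix protein induced by TGF-beta and YAP, had 974.0 and 254.3 CPM in the Kmt2d-/- clones, against 2158, 2526 and 2584 CPM in the Kmt2d+/+ clones (log2 fold change -1.98 ± 0.56, edgeR adjusted p = 0.163). Leaving out Kmt2d-/- clone 1 gave -3.24 for Ccn2, and leaving out Kmt2d-/- clone 2 gave -1.31.

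Several further genes outside the lists were far apart and were called in the clone-correlation fit. Dach2, a nuclear cofactor, had 0.327 and 0.579 CPM in the Kmt2d-/- clones, against 19.4, 35.6 and 14.2 CPM in the Kmt2d+/+ clones (log2 fold change -5.66 ± 0.60, edgeR adjusted p = 0.0566, and 0.0321 in the clone-correlation fit). Ttbk1, a tau tubulin kinase, had 1.03 and 0.0890 CPM in the Kmt2d-/- clones, against 47.6, 44.7 and 90.0 CPM in the Kmt2d+/+ clones (edgeR adjusted p = 0.0807, and 0.0496 in the clone-correlation fit). Foxq1, a forkhead transcription factor, was higher, with 41.6 and 71.0 CPM in the Kmt2d-/- clones, against 7.18, 11.9 and 8.10 CPM in the Kmt2d+/+ clones (edgeR adjusted p = 0.0669, and 0.022 in the clone-correlation fit). Foxq1 lies in a stretch of chromosome 13 that was raised in both Kmt2d-/- clones. With the regional level taken out, as described further on, its log2 fold change went from 2.636 to 2.215 (edgeR adjusted p = 0.0805). The zinc finger cluster of chromosome 4 that holds Zfp980 also held Rex2, Zfp988, Zfp981 and Zfp600. These were chosen from the largest differences called lower in the clone-correlation fit, so their shared direction is part of the choice. The tested genes of the cluster were not counted. Over all of chromosome 4, that fit called 1 gene higher and 13 lower of 938, beside 95 higher and 93 lower of 14216 genes. Rex2 had 1.26 and 0.712 CPM in the Kmt2d-/- clones, against 17.4, 18.3 and 12.9 CPM in the Kmt2d+/+ clones (edgeR adjusted p = 0.0566), with the same limit on near-identical copies.

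Differences also went with chromosome position. On chromosome 12 from 40 Mb, 299 genes at 1 CPM or more lay above the mean of the Kmt2d+/+ clones by a median log2 value of 0.73 in Kmt2d-/- clone 1 and 0.67 in clone 2, against 0.08, -0.04 and -0.05 in the Kmt2d+/+ clones. On chromosome 7 up to 20 Mb the values were 0.71 and 0.39 in the Kmt2d-/- clones, and on chromosome 13 up to 60 Mb 0.25 and 0.55. In the Kmt2d+/+ clones they lay between -0.02 and 0.03 on chromosome 7, and between -0.01 and 0.04 on chromosome 13. These 3 segments, known from earlier results of these data, hold 5.4% of the genes tested. They hold 3 of the 9 called genes, Zfyve26 on chromosome 12 and Syk and Akr1c13 on chromosome 13. Of the genes called higher in the clone-correlation fit and kept in the day 0 table, 48.4% (46 of 95) lay in them, against 3.2% (3 of 93) of those called lower. Because the segments were taken from earlier results of these same data, these shares are in part set by the choice and are no further support. With the regional level of each library taken out, 5 genes passed, 1 higher and 4 lower. Of the 4 that no longer passed, Ndn, Gfra4 and Traf4 lie outside the segments, kept their log2 fold changes of -9.57, 6.50 and 2.59, and moved to an edgeR adjusted p of 0.0509 each. Zfyve26 lies inside, and its log2 fold change was 2.39 in that fit. The part of the regional level in the differences of single genes was not tested beyond that fit.

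Libraries of the same clones at day 7 gave the same direction for all 9 genes. On those 5 libraries alone 55 of 15033 genes passed, and 7 of the 9 were among them, which is 7 of 55 by the other list. At day 7 Syk stood at 12.5 and 26.5 CPM in the Kmt2d-/- clones, against 0.488, 0.438 and 0.0706 CPM in the Kmt2d+/+ clones (edgeR adjusted p = 0.0593 at day 7). Gfra4, the other one that did not pass, had 15.5 and 8.55 CPM in the Kmt2d-/- clones, against 0, 0.121 and 0.0848 CPM in the Kmt2d+/+ clones (edgeR adjusted p = 0.0569). A clone carries its own history through both days, so the day 7 libraries are further measurements of the same clones and not further replicates.

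No gene can be called particular to day 0. The term for a genotype difference that changes between days, with a term for each clone, passed in 0 of 15467 genes in edgeR, with 1286 at an unadjusted p under 0.05, and in 0 with limma-voom. Mgp showed the greatest shift of the named genes. At day 7 it had 113.1 and 42.9 CPM in the Kmt2d-/- clones, against 112.3, 224.1 and 121.2 CPM in the Kmt2d+/+ clones, and the difference between days was -4.45 ± 0.56 on the log2 scale (edgeR adjusted p = 0.196). For Col2a1 the day 7 levels were 20850 and 24950 CPM in the Kmt2d-/- clones, against 339.9, 128.6 and 261.7 CPM in the Kmt2d+/+ clones (log2 fold change 6.56 at day 7). With levels scaled within each day, both Kmt2d-/- clones, at 2449 and 782.9 CPM on day 0, were above every Kmt2d+/+ clone of day 7.

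**Figure D5:**
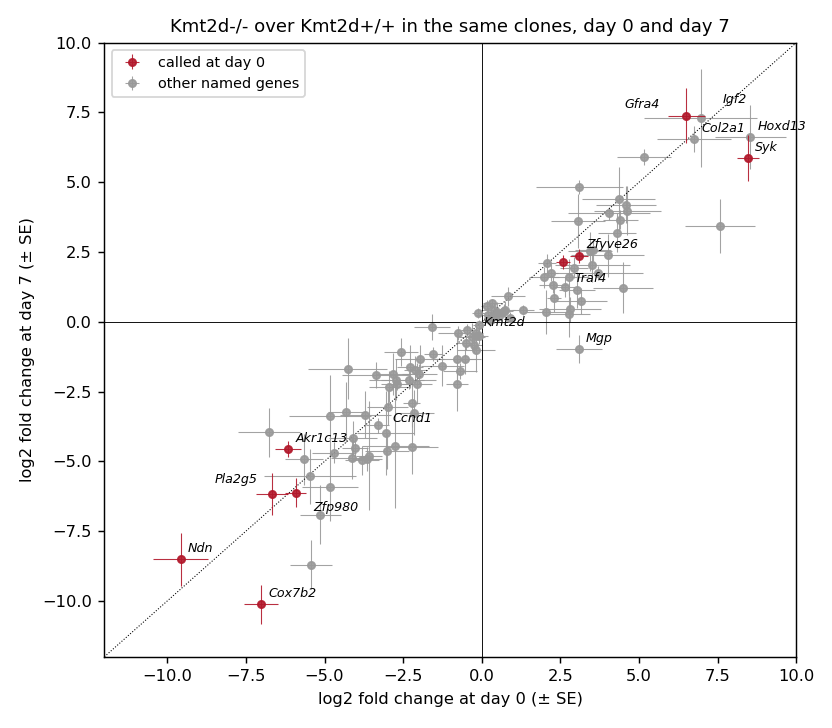
Each point is a named gene, with its log2 fold change (Kmt2d-/- over Kmt2d+/+) at day 0 across and at day 7 up, each with its SE, and genes called at day 0 in red. Of 111 named genes with both values 109 have the same sign on both days, and Mgp, at 3.09 on day 0 and -0.97 on day 7, is one of the exceptions. Many of these genes were chosen by their values in these clones, some through a fit that includes day 7. The agreement in sign is thus in part set by the choice, and the share over all genes is not given.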

How the data were processed

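Poly(A) RNA of the clones was sequenced, and the deposited table holds gene-level estimated counts (expected counts), not normalized, for 27911 Ensembl genes. The submitters' processing notes list the tools Salmon, DESeq2, limma and edgeR, and GRCm38 as the build. Tool versions, the annotation and the use of strand are not stated there, so reads of overlapping, antisense and near-identical genes cannot be told apart. All columns were matched to samples, and 0 were left unmatched. The 2 flow-cell runs of a library (r = 0.979 to 0.985 across genes on the log2 scale) were summed and rounded to whole numbers.

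The day 0 comparison used edgeR 4.0.16 (R 4.3.3) on the 5 day 0 libraries, with its quasi-likelihood test after filterByExpr and TMM scaling. The 10-library fit, which treats the 2 days of a clone as independent, is an alternative. The common biological coefficient of variation was 0.366 with 3 residual degrees of freedom. P-values of the fits on the 5 day 0 libraries measure the spread between clonal lines. Those of the clone-correlation fit rest on both days of each clone and on 1 correlation, 0.49, for all genes. They therefore do not measure the spread between clones alone. A gene passed when its p, adjusted by the Benjamini-Hochberg method over all genes, was under 0.05, and each SE was derived from the F statistic. A fold for a genotype with 0 counts is given as a bound, with 3 counts in each library, and one with 1 to 3 counts has an exact binomial 95% interval. Limma 3.58.1 gave the clone-correlation fit and DESeq2 1.42.0 an alternative, in which an adjusted p of NA stayed NA. The procedure was tested on simulated counts.

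Symbols and positions came from GENCODE vM21 (GRCm38), with 481 identifiers without a symbol, and start regions from RefSeq (GRCm38.p6). The 37 gene lists matched 874 distinct genes, 2 through a synonym, and 13 names were not matched. The members, lists and segments were chosen with earlier results of these data known. Named genes were Kmt2d, Shox2 and Sox9, up to 12 called genes in each direction by fold with a mean of at least 5 CPM, the 5 smallest p, and, for each list, up to 4 called members or its most abundant gene. A second set was chosen after values were seen. It took the 15 largest differences in each direction in the clone-correlation fit and the list members called there or in the 4-fold class (0.1 CPM added to each mean). A few other list members are named beside them. Some named genes are given only in the closing section.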

Additional observations from a re-analysis of the deposited data

How the results depend on the processing

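The count of genes that passed depended strongly on the test and on single clones, and the cause was not tested. Against 9 genes (4 higher, 5 lower), DESeq2 called 1477 (680 higher, 797 lower), limma-voom 2 (1 and 1), edgeR without the low-count filter 77 (30 and 47), run 1 alone 2 (1 and 1), run 2 alone 3 (1 and 2), all 10 libraries 332 (181 and 151) and the clone-correlation fit 193 (99 and 94). The regional offset left 5 (1 and 4), and 6 (2 and 4) lay outside the 3 segments. With 1 Kmt2d+/+ clone left out the count was 0 to 19 in all, 0 to 11 higher and 0 to 8 lower. DESeq2's size factors in edgeR gave 9, and a mean of at least 5 CPM gave 8. All 9 genes kept their direction in every fit that tested them. As their clones did not overlap between the genotypes, leaving out a clone could not turn it. None was called in every setting, Syk in 13 of 17. The term for the difference between days passed in 0 genes in edgeR, in limma-voom and with each clone left out. Over the 37 gene lists and their alternatives, the median log2 fold change of a list moved beyond the replicate spread 48 times and stayed within it 542 times. That of the non-cartilage collagens was 0.56, and -1.05 without Kmt2d-/- clone 1.

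Samples of the 2 genotypes share clone numbers. The deviations of same-numbered clones from their genotype's mean correlated with r = -0.163 (clone 1) and -0.204 (clone 2). With 2 Kmt2d-/- clones, the deviations of one are the exact opposite of the other's. The value for clone 2, with its sign turned, is that of Kmt2d-/- clone 1 and Kmt2d+/+ clone 2, the lines that share a name. These correlations therefore cannot decide whether the lines are paired. With the clone number as a replicate block 0 genes passed (0 higher, 0 lower), 995 at an unadjusted p under 0.05.

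Genes with small differences changed sign under some settings, all with an adjusted p above 0.4 in the main comparison. With 1 clone left out the log2 fold change ran from -0.31 to 1.47 for Sparc, -0.20 to 0.65 for Smo, -1.96 to 0.047 for Xaf1, -0.31 to 0.85 for Top2a, -0.012 to 0.34 for Gapdh, -0.41 to 0.043 for Kmt2d, -0.63 to 0.15 for Ltbp1, -0.27 to 0.066 for Hcfc1, -0.58 to 0.73 for Bgn, -0.26 to 0.051 for Atp5b, -0.15 to 0.013 for Pecam1 and -0.61 to 0.14 for Cxcl12. The replicate block gave -0.023 for Bgn and 0.48 for Cxcl12, run 1 alone 0.078 for Pecam1, limma-voom 0.10 for Cxcl12 and the clone-correlation fit 0.11 for Cxcl12.

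With 2 and 3 clones, levels under 0.0845 CPM are below 3 counts in the shallowest library, and clone history cannot be told apart from genotype.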
